A study of Rattus norvegicus with 14 samples.

Results

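The genes that encode the proteins of the cytosolic ribosome were followed in rat liver (Rattus norvegicus) under 3 magnesium diets. Members were the probe sets with a single platform gene symbol that begins with Rpl or Rps and a digit, or is Rpsa or Rplp0, leaving out the Rps6k kinases; no probe set carried Rplp1 or Rplp2 alone. These were 63 probe sets for 43 of the 4736 genes that had a probe set with 1 symbol, 14 of the small (40S) and 29 of the large (60S) subunit. A probe set is a group of short probes on the array that is meant to report 1 transcript. Some probe sets carry the symbols of several genes. Total RNA from the left lateral lobe of the liver, taken at necropsy, was hybridised to an Affymetrix oligonucleotide array, and the 14 arrays comprised 5 of the Mg++ supplemented diet (arrays 1 to 5), 5 of the standard diet (arrays 6 to 10) and 4 of the Mg++ deficient diet (arrays 11 to 14). The strain, sex, age, magnesium content and length of feeding were not given in the sources used here. Nothing in the labels says that the arrays came from separate animals, so the p-values measure the spread between these samples only, which may be technical.

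The ribosome translates messenger RNA. Its small subunit decodes the message and its large subunit joins the amino acids, and each is built in the nucleolus from ribosomal RNA and proteins that are for the most part needed in equal numbers. Magnesium ions hold the ribosomal RNA in its fold and the subunits together. In liver, which makes most plasma proteins, the messages for ribosomal proteins are among the most abundant. They belong to the TOP class of messages, which begin with a C followed by a run of pyrimidines and are translated or stored together under the control of the mTOR kinase, a sensor of nutrients.

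Pyrimidine runs were found near the annotated start of most members. RefSeq sequences around the annotated start (build GRCr8) were matched for 36 of the 43 genes, and 28 of these (77.8%) held an unbroken run of at least 8 C or T bases on the sense strand that touched the 25 bases on either side of the start. Over all 27457 RefSeq promoters, searched the same way, the share was 24.6%. In 14 of the 28 genes the longest run included the annotated start, and in the other 14 it lay beside it, as in Rps3, Rps16 and Rpl23 below. The median longest run was 12 bases for the ribosomal protein genes and 5 for all. The sequences below are windows of 30 bases, 5′ to 3′, with the longest run in capitals. They are shown for some of the genes whose diet values are described further on, and the last pair, Rpl41 and Rpl3, are members in which no run of 8 was found. Among described genes not shown, the longest run was 19 bases in Rpl21, 10 in Rps6, 8 in Rpsa and Rpl36 and 7 in Rpl24. A match describes the letters only.
Rps24, chr16:96502-96531, plus strand: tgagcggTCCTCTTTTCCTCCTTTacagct
Rps3, chr1:163195776-163195805, minus strand: gcgagccaCTTCCTTTCCTTTCagcggcgc
Rps16, chr1:92770658-92770687, plus strand: ggggtggccccaagCTTTCCTTTTCCggtg
Rps15, chr7:10068099-10068128, minus strand: ctgacaccgCTTCCTTTTCCCagcagccgc
Rps10, chr20:5700729-5700758, minus strand: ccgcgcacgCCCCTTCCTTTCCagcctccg
Rpl23, chr10:83272175-83272204, minus strand: cttgtactaaCTTCCTTTCTgactctttcc
Rpl35, chr3:43165911-43165940, minus strand: gccccgCCCCTTCCTCTTTCTCTCgaaccg
Rplp0, chr12:46718375-46718404, minus strand: accgcaccgcaCTTCTCTCgccaggcgtcc
Rpl41, chr7:1563492-1563521, minus strand: aacagaaggggcggCTCggaagtgacgaca
Rpl3, chr7:113507974-113508003, minus strand: agcgcctgctcgaTCTCTatcggcggcgtg

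The deposited values were linear probe set intensities, with array medians of 18.0 to 34.4 units. They were quantile normalised, floored at 3.93 units and taken to log2. Log2 gene values below are on that scale unless another scaling is named, and the scale understates differences of dim probe sets. Hepatocyte markers were bright on every array: the summed signal of 9 of them was 41125 to 44938 units on the supplemented, 41342 to 46274 on the standard and 41262 to 44658 on the deficient arrays. This and the other marker sums are in linear units after quantile normalisation. The arrays differed in a measure of RNA or target quality, the log2 ratio of 3′ to 5′ control probe sets of Gapdh, which was 0.71 ± 0.49 (SD, n = 5) on the supplemented, 1.64 ± 0.61 (n = 5) on the standard and 1.84 ± 0.65 (n = 4) on the deficient arrays. The mean of the supplemented arrays was below those of both other diets, with overlapping arrays, and the difference did not pass after adjustment (exact permutation test, two-sided, p = 0.0159 for each; adjusted p = 0.0714 over 9 comparisons of array measures). Deficient and standard arrays were not told apart (exact permutation p = 0.595). The ratio was lowest on supplemented array 5 (-0.12) and highest on deficient array 13 (2.68) and standard array 10 (2.65). The same ratio of beta-actin was not low on array 5: it was 1.29 there and 0.77 to 0.97 on the other supplemented arrays. Markers of neighbouring tissue (4 tested of 6 pancreas, fat and muscle genes) summed to 668 to 1358 units on the supplemented, 572 to 859 on the standard and 406 to 693 on the deficient arrays, and their part in the results was not tested. The summed markers of Kupffer cells, lymphocytes, endothelium, stellate cells, bile duct and red blood cells overlapped among the diets. Array 5 stood apart in both directions: 17.3% of all tested genes had their lowest and 18.6% their highest value on it, as did 9 and 6 of the 41 members described next.

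Most of the ribosomal protein genes were bright and steady. Of the 43 genes, 41 had a probe set above the filter on dim signals (59 of the 63 probe sets), among 3073 genes and 5133 probe sets tested. Rps2-ps1 and Rpl5 did not pass it, nor did 1 of the pair of Rpl3l probe sets. Where a gene had several probe sets, the brightest tested one stood for it. The mean log2 signal ran from 4.58 to 12.32, and 36 of the 41 genes were above 8. The 4 genes under 6 were Rpl17, Rpl30, Rps24 and Rpl3l, the last a muscle paralog of Rpl3. For Rps24 a brighter probe set with several symbols, no member, is given further on. The SD between arrays of a diet had a median of 0.24 over the members and 0.37 over all genes tested. These medians were not matched for signal level. Among the members the SD was lowest for Rps10 (0.097), a protein of the small subunit's head. It was highest for Rpl30 (0.96), whose values went from 2.37 on standard array 9 to 6.29 on deficient array 11. By their names and the current gene table, Rps4x-ps9 and Rps2-ps1 are pseudogenes, and Rpl19l4, Rpl36al1, Rpl3l and Rps27l are copies or paralogs. Their probe sets may read the parent gene's message, which was not tested.

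No ribosomal protein gene passed the test in any comparison of diets. The test was limma with Benjamini-Hochberg adjustment over the 5133 probe sets, in 1 model of the 3 diets, and a gene was called at an adjusted p under 0.05. Between the deficient and the standard diet 0 of 41 were called (0% of all 3073 genes), and likewise between the supplemented and the standard diet (0%). For deficient against supplemented it was 0 of 41 (0.0325% of all genes), as in the F-test over the 3 diets (0.0325%). The unadjusted counts at p under 0.05 were 1 member for deficient against standard (3.19% of all genes), 2 for supplemented against standard (8.14%), 8 for deficient against supplemented (12.3%) and 1 in the F-test (Rps24; 8.14%). Each comparison shares arrays with the others.

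**Figure D1:**
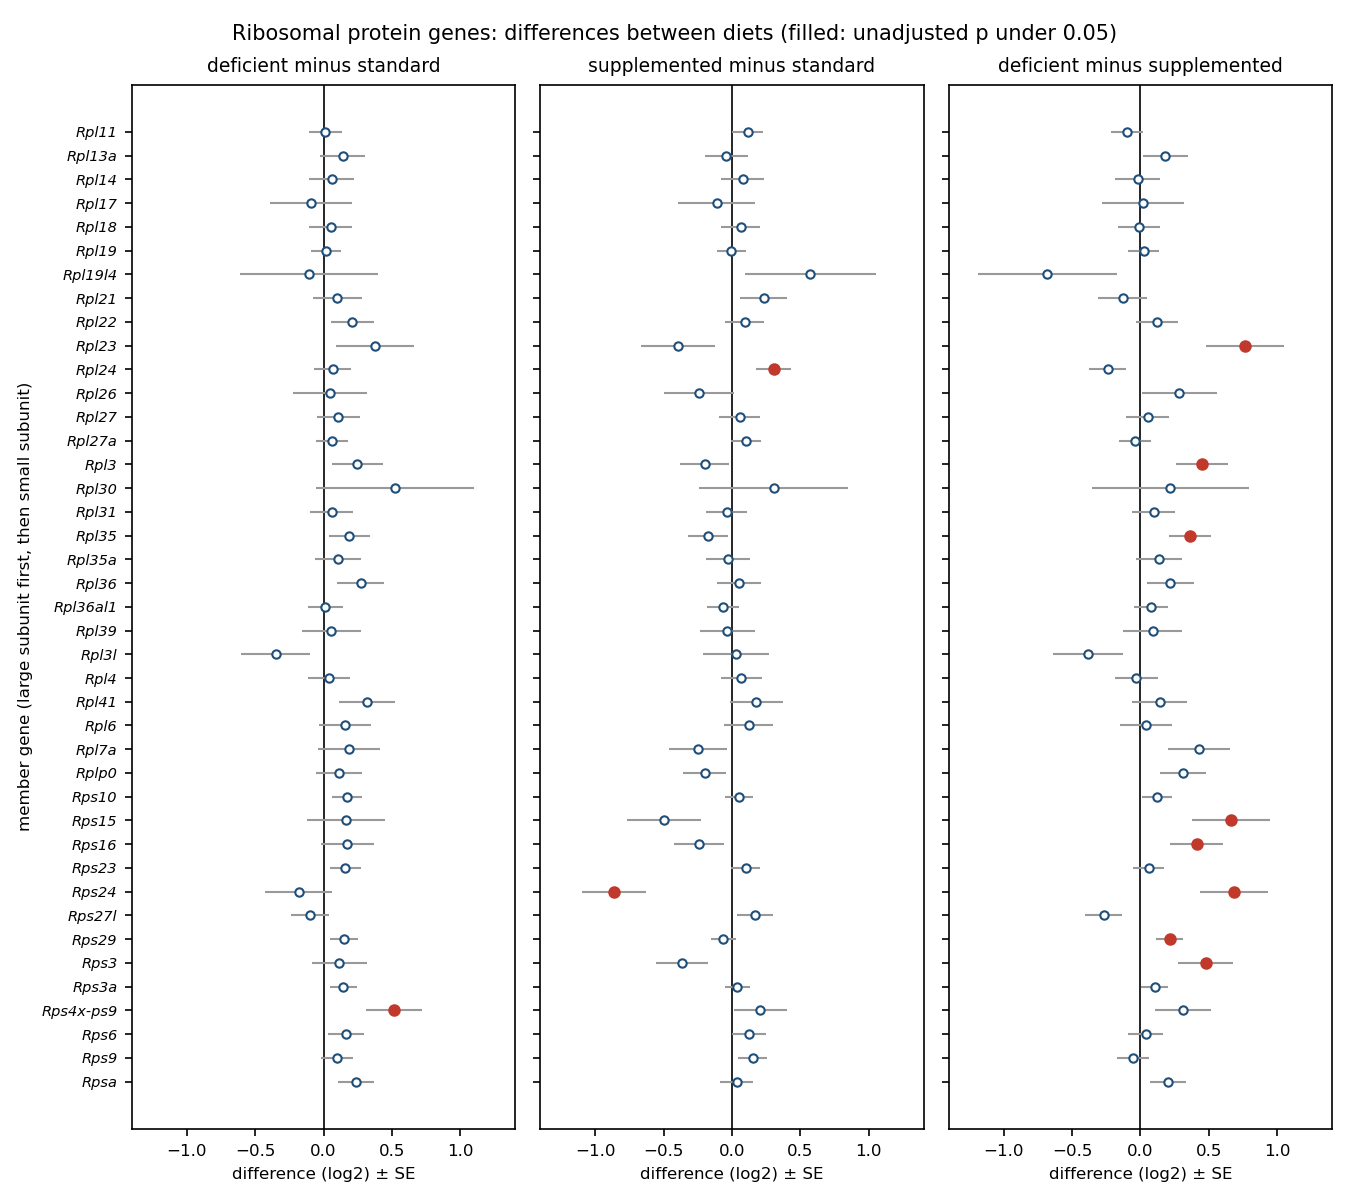
Difference in log2 signal (x axis) with its standard error for each of the 41 tested ribosomal protein genes (y axis), in 3 comparisons of diets; filled points had an unadjusted p under 0.05. In the left panel 36 of 41 points lie to the right of 0, and in the right panel all 8 filled points do.

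Most members were slightly higher on the deficient than on the standard diet, none past the test. Of the 41 genes 36 were higher on the deficient diet, where 52.8% of all genes were, and 5 were lower (Rpl17, Rpl19l4, Rpl3l, Rps24 and Rps27l). The median difference was 0.11, or 1.08-fold, with quartiles of 0.05 and 0.17, and the median of all genes was 0.013. The members ran from -0.35 ± 0.26 (SE) for Rpl3l to 0.52 ± 0.58 for Rpl30. In the 40S subunit 11 of 13 genes were higher (median 0.16), and in the 60S subunit 25 of 28 (median 0.084). At an unadjusted p under 0.05 there was 1 higher member (1.5% of all genes) and 0 lower (1.69%), and for no member did the arrays of these diets separate (0.911% of all genes higher and 0.846% lower). Leaving out the pseudogene, copies and paralogs, 34 of 36 genes were higher (median 0.13). The count was 30 of 41 without standard array 6 and 31 without standard array 9, with medians of 0.10 and 0.086.

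**Figure D2:**
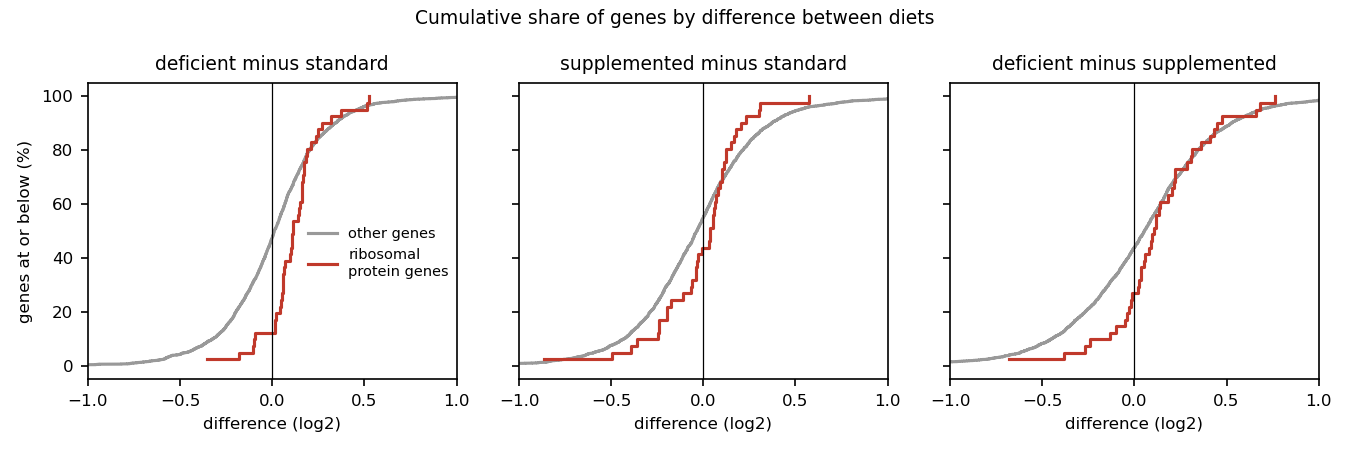
Cumulative share of genes (y axis, %) with a difference in log2 signal at or below the value on the x axis, for the ribosomal protein genes and for all other tested genes. In the left panel the members' curve crosses 0 at a low share and rises steeply, with quartiles of 0.05 and 0.17, whereas the other genes centre near 0.

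The 5 members with the smallest p between the deficient and the standard diet were Rps4x-ps9, Rpsa, Rpl36, Rpl41 and Rps10. Rps4x-ps9, named as a pseudogene of a small subunit protein, measured 9.44, 9.42, 9.59 and 9.07 on the deficient arrays, 8.75, 9.18, 9.38, 8.22 and 8.80 on the standard arrays and 8.93, 9.14, 9.05, 9.25 and 8.99 on the supplemented arrays. The deficient values were high except on array 14, which lay below standard arrays 7 and 8 and supplemented arrays 2 and 4. The difference from the standard diet was 0.52 ± 0.21 (SE), 1.43-fold (limma adjusted p = 0.999), and 0.35 without standard array 9.

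Rpsa, a small subunit protein that also serves as a laminin receptor, measured 10.86, 11.09, 11.07 and 11.00 on the deficient, 10.59, 10.58, 11.01, 10.74 and 10.93 on the standard and 10.75, 10.58, 10.67, 11.05 and 10.96 on the supplemented arrays. The lowest values came from both other diets, and the highest of each reached the deficient range. The difference from the standard diet was 0.24 ± 0.13 (limma adjusted p = 0.999), and the second probe set gave 0.29 ± 0.16 (adjusted p = 0.999). For deficient against supplemented the brightest probe set gave 0.20 and the second 0.44 ± 0.16 (limma adjusted p = 0.307 for the second).

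Rps10 measured 10.20, 10.24, 10.23 and 10.30 on the deficient, 9.88, 10.13, 10.20, 10.10 and 10.06 on the standard and 10.12, 10.13, 9.96, 10.19 and 10.22 on the supplemented arrays. The deficient arrays lay at or above nearly all others, with a difference of 0.17 ± 0.11 (1.13-fold; limma adjusted p = 0.999). Rpl36, a large subunit protein, measured 11.00, 10.72, 10.83 and 10.42 on the deficient, 10.08, 10.76, 10.32, 10.46 and 10.72 on the standard and 10.12, 10.61, 10.64, 10.54 and 10.71 on the supplemented arrays. Here the ranges overlapped widely, and the difference of 0.27 ± 0.17 (limma adjusted p = 0.999) was 0.18 without standard array 6.

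Rpl41, the smallest protein of the ribosome, measured 8.71, 8.88, 8.90 and 8.72 on the deficient, 7.95, 8.76, 8.88, 8.03 and 8.80 on the standard and 8.75, 8.60, 8.65, 8.47 and 8.83 on the supplemented arrays. Standard arrays 6 and 9 were low and the other standard arrays were within the deficient range. The difference was 0.32 ± 0.20 (limma adjusted p = 0.999), and it was 0.18 without standard array 6 and 0.20 without array 9. These arrays were low for many members: 9 of the 41 genes had their lowest value on array 9 (22.0%, against 5.01% of all genes) and 7 on array 6 (17.1%, against 7.71%).

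The family was evenly split between the supplemented and the standard diet. Of the 41 genes 23 were higher on the supplemented diet and 18 lower (45.1% of all genes were higher), with a median of 0.038 against -0.034 for all genes. At an unadjusted p under 0.05 there was 1 higher member, Rpl24 (3.29% of all genes), and 1 lower, Rps24 (4.85%). Rps24 was also the 1 member whose arrays separated, downward (0.911% of all genes), and none separated upward (0.976%). The direction of the median depended on the scaling of the arrays, as the plot of the members by array shows. With arrays centred on their median 6 of 41 were higher and the median was -0.16 (33.0% of all genes higher, median -0.13). With arrays centred on their 75th percentile 8 were higher and the median was -0.089 (41.7% of all genes higher, median -0.063). All genes thus moved too. Relative to their median the members stood at -0.026 in both settings and as deposited, and at 0.073 in the values reported.

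Rps24, a small subunit protein mutated in some cases of Diamond-Blackfan anaemia, measured 5.27, 4.96, 5.22, 5.11 and 4.04 on the supplemented, 5.82, 6.12, 5.74, 5.89 and 5.36 on the standard and 5.50, 5.35, 5.83 and 5.72 on the deficient arrays. Every supplemented value was below every value of the other diets, and array 5 was far below the rest. The supplemented against standard difference was -0.87 ± 0.23 (1.82-fold lower; limma adjusted p = 0.474). The deficient diet was 0.68 ± 0.25 above the supplemented one (1.60-fold; limma adjusted p = 0.308). Without array 5 these differences were -0.65 and 0.46. This probe set is dim. A second probe set from the same sequence entry carries several symbols and so is no member. It was brighter, at 9.05 to 10.58 on the supplemented, 10.11 to 10.54 on the standard and 10.47 to 10.51 on the deficient arrays. Its differences in the same 2 comparisons were -0.14 ± 0.23 and 0.33 ± 0.24, with overlapping arrays.

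Rpl24, a large subunit protein that bridges to the small subunit, measured 11.57, 11.45, 11.61, 11.61 and 11.45 on the supplemented, 11.31, 11.41, 11.48, 10.95 and 11.02 on the standard and 11.02, 11.25, 11.34 and 11.59 on the deficient arrays. The supplemented arrays were high and close together. The difference from the standard diet was 0.30 ± 0.13 (1.24-fold; limma adjusted p = 0.516), and 0.083 with arrays centred on their median. Its second probe set, with values of 9.93 to 10.41 on the supplemented and 9.91 to 10.49 on the standard arrays, gave -0.12 ± 0.15.

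Rps6, the small subunit protein that S6 kinases phosphorylate, measured 10.79, 10.98, 10.95, 11.04 and 11.01 on the supplemented, 10.67, 10.98, 10.99, 10.62 and 10.89 on the standard and 11.15, 11.03, 11.15 and 10.64 on the deficient arrays. All 3 ranges overlapped. The differences were 0.12 ± 0.12 for supplemented against standard, 0.16 ± 0.13 for deficient against standard and 0.04 ± 0.13 for deficient against supplemented (limma adjusted p = 0.766, 0.999 and 0.916). The first of these was 0.072 without standard array 9, and it turned to -0.10 with arrays centred on their median. The second Rps6 probe set gave 0.35 ± 0.15, 0.05 ± 0.15 and -0.29 ± 0.15 in the same order (limma adjusted p = 0.517, 0.999 and 0.429).

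Between the deficient and the supplemented diet 30 of the 41 genes were higher on the deficient diet and 11 lower (56.3% of all genes were higher). The median difference was 0.11, or 1.08-fold, against 0.055 for all genes. Higher members at an unadjusted p under 0.05 numbered 8 (7.35% of all genes): Rpl23, Rps24, Rpl35, Rps3, Rpl3, Rps15, Rps16 and Rps29. There were 0 lower members (4.95%), and 5 of the 8 belong to the 40S subunit, in which the median was 0.20 against 0.084 in the 60S subunit. The lowest member was Rpl19l4, a copy named for a large subunit protein, at -0.68 ± 0.51 (limma adjusted p = 0.564), with values from 5.97 to 8.13 on the deficient and 6.88 to 8.42 on the supplemented arrays. For Rps16, Rps24 and Rps29 every deficient array was above every supplemented array (3 of 41; 3.22% of all genes), and for none was the reverse true (1.56%).

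**Figure D3:**
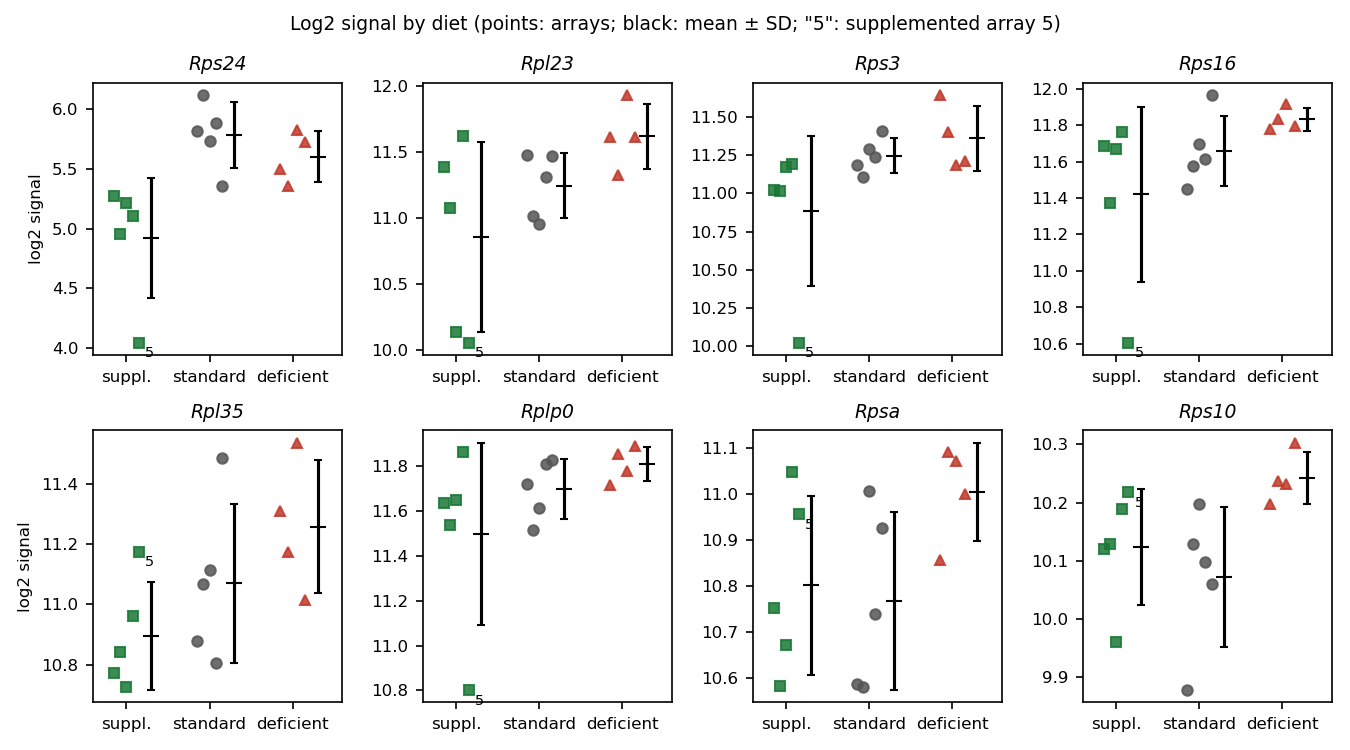
Log2 signal (y axis) of 8 ribosomal protein genes on each array, grouped by diet (x axis), with the mean and SD in black and supplemented array 5 marked "5". Array 5 is the lowest of all 14 arrays for Rps24, Rpl23, Rps3, Rps16 and Rplp0, and is among the highest of its diet for Rpl35, Rpsa and Rps10.

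Rpl23, a large subunit protein known to bind Mdm2, measured 11.39, 11.08, 10.13, 11.62 and 10.05 on the supplemented, 11.48, 11.02, 10.96, 11.31 and 11.47 on the standard and 11.61, 11.32, 11.93 and 11.61 on the deficient arrays. Supplemented arrays 3 and 5 were low and the other supplemented arrays lay among the rest. The deficient diet was 0.77 ± 0.29 higher than the supplemented one (1.70-fold; limma adjusted p = 0.323). The supplemented diet differed from the standard diet by -0.39 ± 0.27 (adjusted p = 0.680), which became -0.21 without array 3 and -0.19 without array 5. A second probe set, from 9.22 to 10.38 on the supplemented and 9.82 to 10.12 on the deficient arrays, gave -0.02 ± 0.20 for deficient against supplemented.

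Rps3, a small subunit protein at the entry of the message channel, measured 11.02, 11.01, 11.17, 11.19 and 10.02 on the supplemented, 11.19, 11.11, 11.29, 11.24 and 11.41 on the standard and 11.64, 11.40, 11.19 and 11.21 on the deficient arrays. Array 5 was more than 1 log2 unit below most arrays, and without it the deficient against supplemented difference of 0.48 ± 0.20 (limma adjusted p = 0.355) was 0.26. For supplemented against standard the difference of -0.36 ± 0.19 (adjusted p = 0.584) was -0.15 without it. The second Rps3 probe set gave 0.00 ± 0.25 for deficient against supplemented.

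Rps16 measured 11.69, 11.37, 11.67, 11.76 and 10.61 on the supplemented, 11.45, 11.58, 11.69, 11.62 and 11.96 on the standard and 11.78, 11.83, 11.92 and 11.79 on the deficient arrays. The gap between the highest supplemented and the lowest deficient array was narrow. The difference of 0.41 ± 0.19 (1.33-fold; limma adjusted p = 0.383) was 0.21 without array 5. Rplp0, the base of the acidic stalk that recruits elongation factors, measured 11.64, 11.54, 11.65, 11.86 and 10.80 on the supplemented, 11.72, 11.51, 11.62, 11.81 and 11.83 on the standard and 11.72, 11.85, 11.78 and 11.89 on the deficient arrays. Its deficient against supplemented difference of 0.31 ± 0.17 (limma adjusted p = 0.429) was 0.14 without array 5.

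Rpl35, which lies near the exit of the peptide tunnel, measured 10.77, 10.84, 10.72, 10.96 and 11.17 on the supplemented, 10.88, 11.07, 11.11, 10.81 and 11.49 on the standard and 11.31, 11.17, 11.54 and 11.01 on the deficient arrays. Array 5 was here the highest of its diet. The deficient against supplemented difference was 0.36 ± 0.15 (1.29-fold; limma adjusted p = 0.345), and the second probe set gave 0.02 ± 0.14.

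Rpl3, a large subunit protein near the peptidyl transferase centre, measured 11.54, 11.40, 11.33, 12.02 and 11.78 on the supplemented, 11.66, 11.60, 11.58, 11.89 and 12.35 on the standard and 12.23, 11.90, 12.40 and 11.72 on the deficient arrays. The highest values were on deficient array 13 and standard array 10. The difference was 0.45 ± 0.19 (1.36-fold; limma adjusted p = 0.355), and the second probe set gave 0.03 ± 0.14.

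Rps29, a small zinc-binding protein of the 40S subunit, measured 12.30, 12.13, 12.23, 12.26 and 12.29 on the supplemented, 12.15, 12.30, 12.51, 12.13 and 12.44 on the standard and 12.33, 12.33, 12.67 and 12.48 on the deficient arrays. The deficient arrays were just above the supplemented ones, led by array 13. The difference was 0.21 ± 0.10 (1.16-fold; limma adjusted p = 0.383), 0.14 without deficient array 13, and -0.08 ± 0.09 on the second probe set.

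The count of 8 members between the deficient and the supplemented diet moved with the settings. The share of all genes that were higher at an unadjusted p under 0.05, 7.35% with all arrays, stands in brackets after each count. It was 2 without deficient array 13 (3.87%), 3 without deficient array 11 (5.47%), 4 without supplemented array 2 (6.90%), 5 without supplemented array 3 (7.09%) and 7 without supplemented array 5 (7.26%). Without supplemented array 5, standard array 10 and deficient array 13 together it was 4 (5.14%). It was 5 with these 2 diets alone in the fit (6.64%), 5 with no filter on dim probe sets (6.50%), 4 without a trend of the spread on the level (7.16%), and 3 with the mean of a gene's probe sets in place of the brightest one (6.96%). It was 7 with signals as deposited (4.92%), 15 with arrays centred on their median (14.7%) and 12 on their 75th percentile (8.44%). With the Gapdh ratio of each array as a covariate the count was 0 (1.24%), and with that of beta-actin it was 2 (2.12%), so the calls of all genes moved with these covariates too. The difference of Rpl23 was then 0.27 and that of Rps16 0.013 with Gapdh, and the median of the family was 0.014 with Gapdh and -0.011 with beta-actin. The Gapdh ratio itself differed between the deficient and the supplemented arrays (means of 1.84 and 0.71), so such a fit cannot fully tell diet and ratio apart. The part of RNA quality in these differences was not tested further. For deficient against standard, where the mean Gapdh ratios were 1.84 and 1.64, the median was 0.093 with the Gapdh ratio and 0.095 with the beta-actin ratio. It was 0.11 without a covariate. The share of members that were higher was 85.4% with Gapdh, 75.6% with beta-actin and 87.8% without a covariate.

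Probe sets of the same gene did not always point the same way. Of the 15 genes with several tested probe sets, all of a gene's probe sets had 1 sign in 11 genes between the deficient and the standard diet. This held in 4 of 15 genes between the supplemented and the standard diet and in 5 of 15 between the deficient and the supplemented diet. The same share over all genes with several probe sets was not counted. Deficient against supplemented was the comparison with the most members at an unadjusted p under 0.05.

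**Figure D4:**
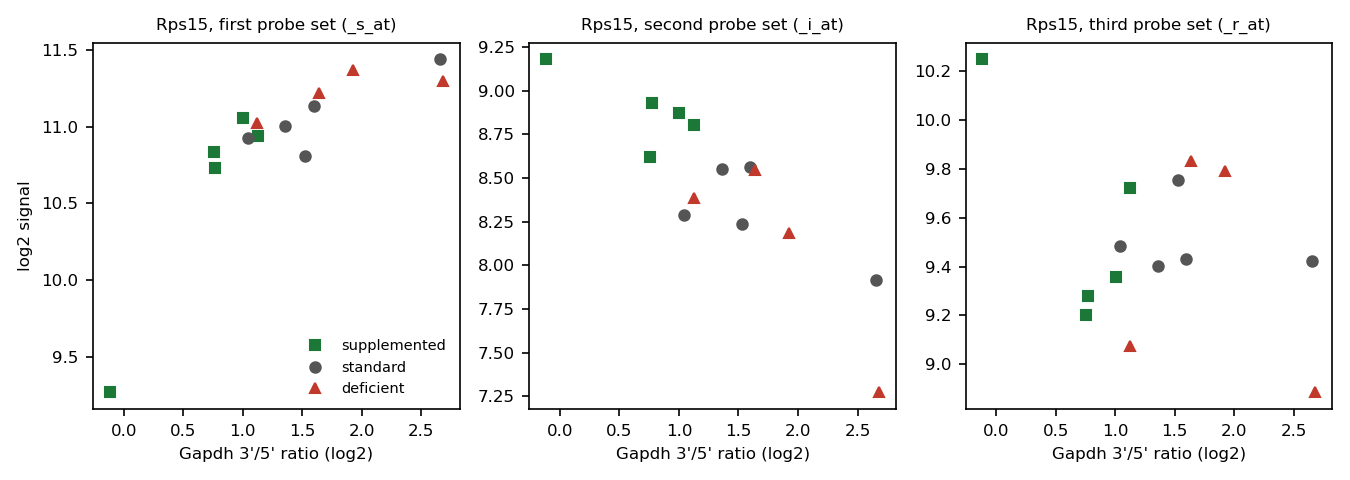
Log2 signal of the 3 Rps15 probe sets (y axes) against the log2 Gapdh 3′/5′ ratio of the array (x axes), with 1 point for each of the 14 arrays. The first probe set is lowest and the second and the third are highest on supplemented array 5, whose ratio is -0.12, and those same ones are lowest on deficient array 13, whose ratio is 2.68.

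Rps15, a small subunit protein close to the decoding site, showed this most. Its brightest probe set measured 10.73, 11.06, 10.83, 10.94 and 9.27 on the supplemented, 10.81, 11.01, 11.13, 10.93 and 11.44 on the standard and 11.37, 11.22, 11.29 and 11.02 on the deficient arrays. Array 5 was far below all others. The deficient against supplemented difference was 0.66 ± 0.28 (1.58-fold; limma adjusted p = 0.364), and 0.34 without array 5. The supplemented against standard difference was -0.50 ± 0.27 (adjusted p = 0.597), and -0.17 without it.

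The second Rps15 probe set measured 8.93, 8.87, 8.62, 8.81 and 9.18 on the supplemented, 8.24, 8.55, 8.56, 8.29 and 7.91 on the standard and 8.18, 8.54, 7.27 and 8.39 on the deficient arrays. Here every supplemented array was above every array of the other diets. The deficient diet differed from the supplemented one by -0.79 ± 0.24 (1.72-fold lower; limma adjusted p = 0.264) and the supplemented from the standard diet by 0.57 ± 0.22 (adjusted p = 0.501). The third probe set, from 9.20 to 10.25 on the supplemented and 8.89 to 9.83 on the deficient arrays, gave -0.17 ± 0.24. With the mean of the 3 probe sets the gene stood at -0.096 for deficient against supplemented, and with the Gapdh ratio as a covariate the brightest probe set stood at 0.014.

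Rpl21, a large subunit protein, had a probe set other than its brightest whose arrays separated. That probe set measured 8.84, 9.01, 8.92, 9.15 and 8.15 on the supplemented, 8.76, 9.61, 8.97, 8.87 and 9.26 on the standard and 9.23, 9.23, 9.23 and 9.20 on the deficient arrays, with a deficient against supplemented difference of 0.41 ± 0.21 (limma adjusted p = 0.418). The brightest Rpl21 probe set lay between 10.07 and 10.50 on the supplemented and 10.18 and 10.30 on the deficient arrays. Its difference was -0.13 ± 0.18 (adjusted p = 0.783).

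For each array the median deviation of the 41 genes from their own means was taken, and its spread depended on the scaling of the arrays. After quantile normalisation it lay between -0.17 and 0.14. It was -0.040, -0.11, -0.041, 0.14 and 0.11 on the supplemented arrays, -0.17, 0.019, 0.058, -0.11 and 0.078 on the standard arrays and 0.11, 0.072, 0.13 and 0.030 on the deficient arrays. All 4 deficient arrays were above 0, and each other diet had arrays on both sides. The diet means were 0.012 ± 0.11 (SD, n = 5), -0.024 ± 0.11 (n = 5) and 0.085 ± 0.043 (n = 4), so the difference between the deficient and the standard diet was near the spread of 0.11 among standard arrays. With arrays centred on their median it ran from -0.43 on supplemented array 5 to 0.59 on deficient array 13, and deficient array 11 stood at -0.061. In a bulk sample, fewer cells of a type and less RNA per cell cannot be told apart.

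**Figure D5:**
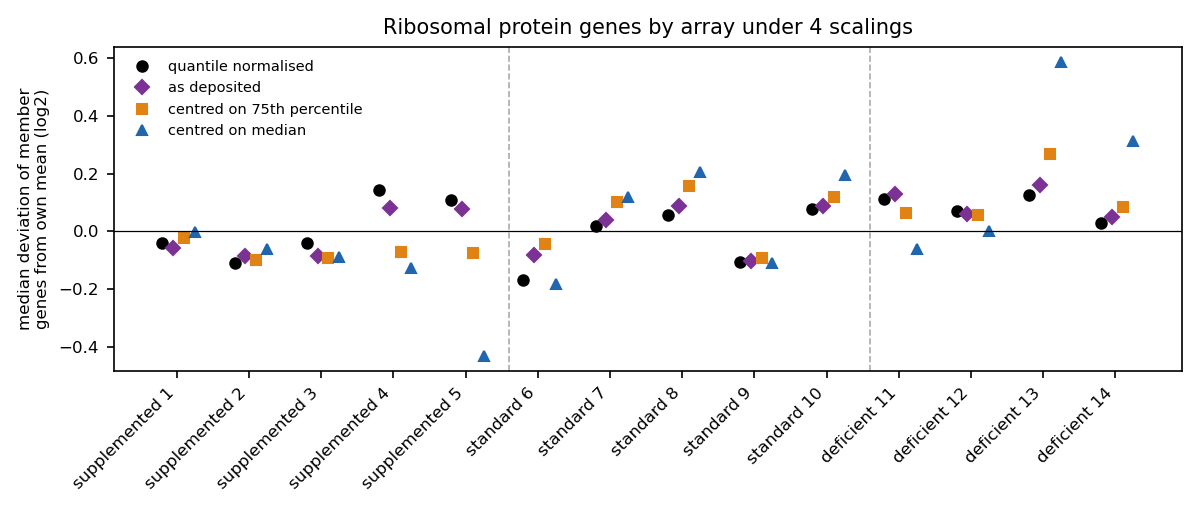
Median deviation of the 41 ribosomal protein genes from their own means (y axis, log2) on each of the 14 arrays (x axis) under 4 scalings of the arrays; dashed lines separate the diets. With quantile normalisation supplemented array 5 stands at 0.11 and deficient array 13 at 0.13, and with arrays centred on their median they stand at -0.43 and 0.59.

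The probe sets that carry several symbols, a ribosomal one among them, are no members, and which gene each reads was not tested. Of 39 tested, 33 were higher for deficient against standard (median 0.15), 18 for supplemented against standard (median -0.018) and 30 for deficient against supplemented (median 0.076). Of all 5133 probe sets tested, 50.1%, 47.8% and 52.4% were higher in this order. At an unadjusted p under 0.05 the higher ones numbered 3, 6 and 4 of 39 (68, 213 and 352 of all 5133 probe sets). In each comparison 0 were lower (88, 243 and 317 of 5133). Arrays separated upward for 1, 0 and 2 (35, 46 and 158 of 5133). These probe sets share arrays, and in part sequence entries, with the members.

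Other genes of translation were counted in lists drawn up with earlier results of these data known, and limma called none in any comparison. Of all genes, 52.8% were higher for deficient against standard, 45.1% for supplemented against standard and 56.3% for deficient against supplemented. The medians of all genes were 0.013, -0.034 and 0.055 in this order. These shares and medians stand beside the counts of every list below. Of the other genes with TOP messages, 7 of 20 were tested, and 6 were higher on the deficient than on the standard diet (median 0.12). Eef1g, a subunit of elongation factor 1, was 0.35 ± 0.16 higher (limma adjusted p = 0.999). Eef2, which moves the ribosome along the message, differed by 0.12 ± 0.12, and Eef1a1, which delivers aminoacyl-tRNA, by -0.08 ± 0.17. Against the supplemented diet 6 of the 7 were higher on the deficient diet (median 0.10), with Eef2 at 0.09 ± 0.12 and Eef1a1 at -0.26 ± 0.17. Between the supplemented and the standard diet 3 of 7 were higher (median -0.0028).

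The list of genes for proteins of the separate ribosome of the mitochondrion held 14, and all 14 were tested. On the deficient diet 11 were higher than on the standard diet (median 0.14) and 10 higher than on the supplemented diet (median 0.16), and on the supplemented diet 3 were higher than on the standard diet (median -0.068). For deficient against supplemented 4 of the 14 were higher at an unadjusted p under 0.05 (7.35% of all genes) and 0 lower (4.95%). Arrays separated upward for 3 of the 14 (3.22% of all genes) and downward for 0 (1.56%). In that comparison Mrpl38 was 0.84 ± 0.27 and Mrpl13 0.67 ± 0.21 higher, with arrays that separated (limma adjusted p = 0.267 and 0.264). Mrpl13 was at -0.43 ± 0.20 on the supplemented against the standard diet, and Mrpl58 was 0.37 ± 0.17 higher on the deficient than on the standard diet (adjusted p = 0.547 and 0.999).

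Of the genes of ribosome assembly and RNA polymerase I, 11 of 38 were tested. For deficient against supplemented 10 were higher (median 0.25), and between the supplemented and the standard diet 2 were higher (median -0.24). Ncl, the nucleolar protein nucleolin, was at -0.86 ± 0.32 on the supplemented against the standard diet and at 0.90 ± 0.34 on the deficient against the supplemented diet (limma adjusted p = 0.492 and 0.328). Dkc1, the pseudouridine synthase dyskerin, was at -0.65 ± 0.24 and 0.64 ± 0.25 in these comparisons (adjusted p = 0.492 and 0.335). For deficient against standard 5 of 11 were higher (median -0.0087), with Myc, a transcription factor that drives ribosome production, 0.63 ± 0.26 higher (adjusted p = 0.999).

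Initiation factors and the mTOR pathway set how much of the messages is translated. Of 19 tested initiation factor genes (of 42) 8 were higher for deficient against standard, 10 for supplemented against standard and 10 for deficient against supplemented, with medians of -0.027, 0.039 and 0.015. Eif2b5 and Eif2b1, subunits of the exchange factor for eIF2, were at -0.84 ± 0.38 and -0.43 ± 0.19 on the supplemented against the standard diet (limma adjusted p = 0.547 and 0.534). Of 11 tested genes of the mTOR and S6 kinase pathway (of 28) 4 were higher for deficient against standard, 7 for supplemented against standard and 1 for deficient against supplemented, where 10 were lower. The medians were -0.049, 0.14 and -0.12. Rheb, the GTPase that activates mTOR, was 0.51 ± 0.22 higher for supplemented against standard (adjusted p = 0.517).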

How the data were processed

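Liver RNA of 14 arrays in 3 diets was analysed, with diets and array numbers from the sample titles. The deposited values are probe set intensity values on a linear scale. The software behind them is not given in the sources used here. The 2% trimmed mean of an array averaged 150.3 units over the 14 arrays, and whether each array had been scaled to it was not tested. All 14 columns were used.

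Array medians differed by 1.91 times, above a limit of 1.5, so log2 intensities were quantile normalised over the 8740 probe sets other than the 59 controls. Signals were floored at the pooled 20th percentile (3.93 units), and probe sets whose mean exceeded 14.3 units (log2 3.83), the pooled 40th percentile, were tested. Genes came from the platform annotation: 7006 probe sets had 1 symbol, 308 several and 1426 none. Of the 43 member genes 42 were found by ID in the current gene table (not Rps9).

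The test was limma 3.58.1 (R 4.3.3; lmFit, then eBayes with trend), two-sided, in 1 model of 3 diets. P-values were adjusted by Benjamini-Hochberg over 5133 probe sets. Exact permutation tests served for the array measures. The code was tested on simulated data. Genes described in full were the 5 members with the smallest p in each comparison and the F-test, members with a probe set whose arrays separated, and Rpsa, Rplp0, Rps6 and Rpl41. From other lists the 2 members with the smallest p, where under 0.05, were named, with Eef1a1 and Eef2. Rpl17, Rpl19l4, Rpl3l, Rpl30 and the members at p under 0.05 or lower in a small count were named after their values were seen. Members and lists were chosen with earlier results of these data known. The number of arrays limits the precision. Alternatives were other scalings, floors and filters, covariates, array weights, the mean of probe sets and arrays left out.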

Additional observations from a re-analysis of the deposited data

Results flagged for a closer look

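Of 66 groups of arrays checked for a value far from the others of its diet, 5 held one, and chance gives about 1 in 20. On supplemented array 5, Rps24 was at 4.04 where the other supplemented arrays were at 4.96 to 5.27, Rps3 at 10.02 (others 11.01 to 11.19) and Rps15 at 9.27 (others 10.73 to 11.06). Rpl36 was at 10.12 on supplemented array 1, where the others were at 10.54 to 10.71. The Rpl21 probe set whose arrays separated was at 9.20 on deficient array 14, where the other 3 lay within 9.23 after rounding, a gap that is small in size. Array 5 also had the lowest Gapdh 3′/5′ ratio of the 14 arrays, at -0.12, but its beta-actin ratio of 1.29 was the highest of the supplemented arrays. The differences of Rps24, Rps3 and Rps15 without it stand beside these genes above.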

How the results depend on the processing

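No paired analysis was possible because the array numbers run on from diet to diet and none is shared. The counts of called members were 0 under every alternative run. Between the deficient and the standard diet the median stayed between 0.081 and 0.175, leaving out single arrays gave 0.086 to 0.15, and 30 to 37 members were higher. With 1 array left out the median was 0.064 to 0.17 for deficient against supplemented, with 27 to 31 higher, and 0.00033 to 0.066 for supplemented against standard, with 21 to 26 higher.

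Scaling mattered. With arrays centred on their median, the median of all genes shifted to 0.21 for deficient against supplemented and -0.13 for supplemented against standard, with 69.8% and 33.0% of all genes higher (56.3% and 45.1% in the values reported). The members' medians were then 0.38 and -0.16, which is 0.17 and -0.026 relative to all genes, with 6 higher in the latter comparison. Centring on the 75th percentile gave 0.21 and -0.089, with 8 higher. As deposited, 46.4% and 55.3% of all genes and 75.6% and 51.2% of the members were higher, and the members' medians were 0.14 and 0.011. Relative to all genes the members again stood at 0.17 and -0.026, both as deposited and with centring on the 75th percentile. In the values reported they stood at 0.051 and 0.073 relative to all genes. The beta-actin covariate gave a median of -0.011 for deficient against supplemented.

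Between the supplemented and the standard diet, Rps6 turned to -0.10 with centring on the median and -0.036 on the 75th percentile. Rps15 turned to 0.034 and Rpl23 to 0.012 with the Gapdh covariate, and Rps15 to 0.045 with the mean of its probe sets, which gave -0.096 for deficient against supplemented. The causes were not tested. Of the alternatives chosen after seeing the data, counting all member probe sets gave a median of 0.059 for deficient against supplemented (62.7% higher) and 0.053 for supplemented against standard. Adding those with several symbols gave 0.095 and 0.010, and leaving out copies 0.12 and 0.036.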
